A study of Mus musculus with 98 samples.

Results

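The hippocampus is built from subfields whose main neurons differ in their gene expression, and 9 marker genes of 3 subfields were followed in 98 RNA-seq libraries of mouse hippocampal tissue and cultured hippocampal neurons. The choice of members was made with earlier results of these data known. Prox1, Dsp, C1ql2 and Tdo2 were taken as markers of the dentate gyrus, Wfs1 and Fibcd1 of CA1, and Bok, Iyd and Grik4 of CA3. They are 9 of the 55852 gene names that occur in the 6 deposited count tables, and all 9 were present in each table and passed the filter on low counts in all 27 comparisons. Their level is given as log2 CPM, the base 2 logarithm of a gene's CPM value, its count scaled to library size, so that a step of 1 is a doubling.

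Input runs in a loop through these subfields: granule cells of the dentate gyrus receive it from the entorhinal cortex and pass it to pyramidal cells of CA3, which project to those of CA1. Prox1 is a homeobox transcription factor that granule cells need to take and keep their identity. Because the subfields lie side by side along the length of the hippocampus, the balance of their markers in a tissue library can reflect what was dissected as well as what the cells expressed.

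The study asked what raised levels of ACSS2, which turns acetate into acetyl-CoA, do in hippocampal neurons that met tau and in mice that age or carry mutant tau. The cultures were primary embryonic hippocampal neurons of the CD1 strain. They received the virus PhP.eB.upACSS2, which carries Acss2, or PhP.eB-vector on day 5 in vitro for 48 hours, were washed on day 7 and then received hAD-tau or PBS. The 4 combinations were sampled on day 9 and on day 21 (n = 3 each, 24 unstimulated libraries), and on day 21 in a set labelled as stimulated (n = 3 each, 12 libraries), for which the labels name no stimulus. A separate culture without virus, called the tau culture here, received hAD-tau (n = 4) or PBS (n = 3) and was collected on day 21. The labels do not say whether replicates came from separate cultures, so p-values measure the spread between these libraries, which may be technical.

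All mice were male, and the viruses were injected behind the eye. Aged C57BL6 mice were injected at 21 to 22 months with 1.5e11 viral genomes and taken 2 months later, 30 minutes after recall of a remote context memory, at an age labelled 22 to 23 months (n = 12 with upACSS2, 12 with vector, whole hippocampus). The 10-month C57BL6 mice received 1.2e11 viral genomes for 2 weeks and were taken 30 minutes after fear conditioning (n = 6 and 5, dorsal hippocampus). PS19 mice, which carry mutant human tau driven by the prion protein promoter, were injected at 2.5 months with 1.5e10 viral genomes. They were taken 1 or 6 months later, at 3.5 or 8.5 to 9 months, 30 minutes after contextual recall (n = 5 for each virus and time). Their tissue is labelled dorsal hippocampus, except that the upACSS2 group at 1 month is labelled whole hippocampus, so that virus and dissected piece cannot be told apart at that time. For several groups the treatment field disagrees with the sample title, and the titles were followed.

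Total counts ran from 5075099 to 39985460 per library, and the 10-month mice were the shallowest, with at most 10839490. Most members were well covered, but Iyd and Tdo2 were not: Iyd had 1 to 59 counts in the tau culture and 6 to 105 in the 10-month mice, and Tdo2 had 3 to 32 in the tau culture. In the aged mice replicates 1 to 3 spread more than replicates 4 to 12 for several members, with an SD of Wfs1 of 0.78 against 0.37 log2 CPM. The 2 sets also differed in median, lower in replicates 1 to 3 for Fibcd1 (6.40 against 7.34) and Bok (5.87 against 6.30). Dsp (5.45 against 4.87) and Prox1 (6.53 against 6.21) were higher there, and Grik4 was similar (5.56 against 5.59). Subtracting group means, as done for the correlations below, leaves this difference in. Nothing in the labels names a batch. In the tau culture, PBS replicate 3 stood apart from the other 6 libraries: its summed astrocyte markers were 1937 CPM against 6186 to 11650, and its inhibitory neuron markers 2361 CPM against 516 to 1256.

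Each member was placed on the mouse genome (GRCm38, GENCODE M21), and all are protein-coding. Prox1 (ENSMUSG00000010175.13) is at chr1:190118035-190170714 on the minus strand, Dsp (ENSMUSG00000054889.10) at chr13:38151294-38198577 on the plus strand, C1ql2 (ENSMUSG00000036907.9) at chr1:120340582-120343174 on the plus strand and Tdo2 (ENSMUSG00000028011.16) at chr3:81957090-81976202 on the minus strand. Wfs1 (ENSMUSG00000039474.13) is at chr5:36966104-36989205 and Fibcd1 (ENSMUSG00000026841.7) at chr2:31813290-31846005, both on the minus strand. Bok (ENSMUSG00000026278.14) is at chr1:93685660-93695764 and Iyd (ENSMUSG00000019762.4) at chr10:3540240-3554877, both on the plus strand, and Grik4 (ENSMUSG00000032017.14) is at chr9:42518135-42944493 on the minus strand. Counts are of whole genes. Exons overlap those of another gene by 133 bases in Prox1 (the antisense Prox1os), 499 in Dsp (Gm10129, opposite strand) and 59 in Grik4 (Gm24420), and without a stated strand setting reads there cannot be assigned to either gene.

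The 250 bases before the RefSeq start of Prox1, Dsp and C1ql2 (GRCm38.p6) are shown because these 3 dentate markers rose and fell together across the mice, as described further on. Prox1 has 2 RefSeq starts, and the outer one was used (chr1:190170828-190171077, minus strand). The windows of Dsp and C1ql2 are chr13:38151044-38151293 and chr1:120340332-120340581, both on the plus strand. All run 5′ to 3′ towards the gene, and capitals mark matches on either strand to TATAAA or to CAGATG, an E-box of the kind that neuronal bHLH factors bind.
Prox1: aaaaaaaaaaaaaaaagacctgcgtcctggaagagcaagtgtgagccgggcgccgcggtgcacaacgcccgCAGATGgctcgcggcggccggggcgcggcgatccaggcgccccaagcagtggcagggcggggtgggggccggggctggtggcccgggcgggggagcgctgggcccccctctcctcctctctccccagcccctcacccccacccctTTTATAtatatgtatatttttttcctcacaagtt
Dsp: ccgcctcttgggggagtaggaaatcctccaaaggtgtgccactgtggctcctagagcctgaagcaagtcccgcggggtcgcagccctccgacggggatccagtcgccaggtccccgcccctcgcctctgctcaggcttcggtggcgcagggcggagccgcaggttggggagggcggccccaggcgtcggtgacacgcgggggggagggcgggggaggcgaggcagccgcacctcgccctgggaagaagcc
C1ql2: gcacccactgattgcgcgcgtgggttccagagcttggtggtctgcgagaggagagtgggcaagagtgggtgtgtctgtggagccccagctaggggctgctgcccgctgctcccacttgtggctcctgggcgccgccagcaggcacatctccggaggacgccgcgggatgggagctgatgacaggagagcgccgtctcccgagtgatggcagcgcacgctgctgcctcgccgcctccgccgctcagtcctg
TATAAA, read as TTTATA on the opposite strand, begins 34 bases before the Prox1 start, and CAGATG begins 179 bases before it. Neither string occurs in the windows of Dsp and C1ql2, and TGACG, the core of a CRE site, occurs in none of the 3. The window of Tdo2, the dentate marker not shown, holds TATAAA beginning 229 bases before its start. Of 27025 RefSeq promoter windows of this length, 13% hold TATAAA, 14.5% hold CAGATG and 17.9% hold TGACG on either strand, and the motifs do not overlap in Prox1. The GC content of the 3 windows is 64.8% in Prox1, 72.4% in Dsp and 68.8% in C1ql2 against a median of 52%, and they hold 20, 22 and 20 CG pairs against a median of 6. This is neither shared by all dentate windows nor particular to them: Tdo2 has 46.4% and the other RefSeq start of Prox1 56%, while Wfs1, Fibcd1 and Grik4 have 69.6%, 71.6% and 69.6%. A match to these letters is a description of the sequence, not evidence of a factor bound there.

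Tissue and culture differed most in the CA1 marker Fibcd1, which encodes a membrane receptor that binds acetylated groups such as those of chitin. Its log2 CPM was lowest at 5.48, with a median of 7.36 and a highest value of 8.11 over the 55 mouse libraries, and ran from 1.72 through a median of 2.47 to 4.70 over the 43 neuron libraries. Every mouse library lay above every neuron library, and the medians differed 29.6-fold. The other CA1 marker, Wfs1, which encodes the endoplasmic reticulum protein wolframin, had medians of 7.03 in mice and 4.96 in neurons, 4.20-fold apart, and 47 of 55 mouse libraries lay above all neurons. Mice and neurons come from tables that were scaled separately and differ in strain, age and cell makeup, so these levels were not tested.

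The CA3 markers did not behave alike in this contrast. Bok, a BCL2-family protein linked to cell death, had medians of 6.28 in mice and 4.14 in neurons (4.40-fold), and Iyd, the iodotyrosine deiodinase that recovers iodide, 2.21 and -0.11 (4.99-fold). Grik4, a kainate-type glutamate receptor subunit concentrated in CA3, was instead 1.41-fold lower by medians in mice, 5.62 against 6.12, with overlapping ranges. No mouse library exceeded the highest neuron library for Grik4, and 2 lay below the lowest.

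Among the dentate markers, Tdo2, the tryptophan dioxygenase that opens the kynurenine pathway, had medians of 2.83 in mice and 1.16 in neurons (3.17-fold), and 41 mouse libraries lay above all neurons. Dsp, the desmosomal plaque protein desmoplakin, differed 2.16-fold (5.78 and 4.67). C1ql2, a secreted C1q-like protein of mossy fibre synapses, differed 1.55-fold (6.04 and 5.41). Prox1 was 1.36-fold lower by medians in mice, 6.40 against 6.84. Prox1 and Grik4 were thus the members with a median lower in tissue than in culture.

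**Figure D1:**
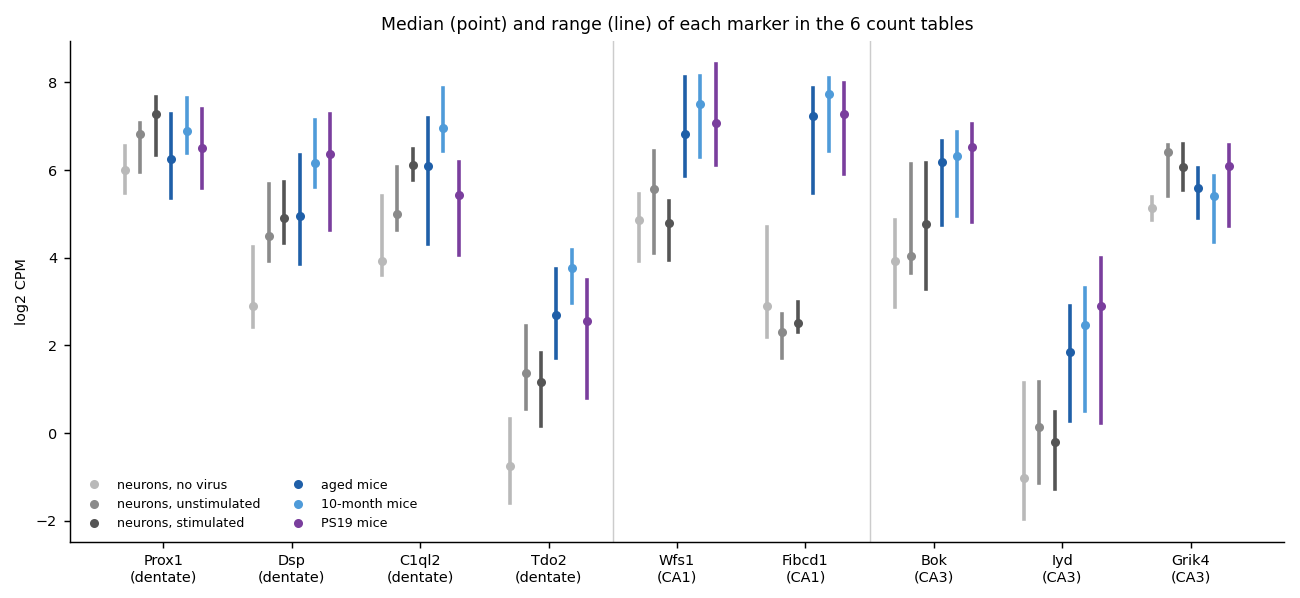
Median (point) and range (line) of log2 CPM of the 9 subfield markers in the 6 count tables, 3 of cultured neurons in greys and 3 of mouse hippocampus in colours. Fibcd1 ranges of mice and neurons do not overlap, while Prox1 and Grik4 lie at similar levels in both.

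Levels of different genes were compared as CPM per kilobase of exon. In the aged mice Bok led with a median of 39.7 CPM per kb, followed by C1ql2 (34.2), Fibcd1 (31.9) and Wfs1 (30.1). Prox1 (9.03), Grik4 (8.02), Dsp (3.21), Iyd (2.14) and Tdo2 (1.65) lay lower. The same 4 genes led in the 10-month mice, where C1ql2 came first at 62.1 CPM per kb, and in the PS19 mice, where Bok came first and C1ql2 (21.7) last of the 4. Neighbours within the leading 4 overlapped over libraries in each mouse table.

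In the unstimulated neurons the order was another: C1ql2 15.9, Grik4 14.3, Prox1 13.4, Wfs1 12.9 and Bok 8.95 CPM per kb, with Dsp at 2.33, Fibcd1 at 1.03, Tdo2 at 0.639 and Iyd at 0.627. Fibcd1, among the leading 4 in each mouse table, was among the lowest 3 here. The stimulated neurons had C1ql2 (34.7) and Prox1 (18.5) ahead, and in the tau culture Bok (8.27), Wfs1 (7.71), C1ql2 (7.61) and Prox1 (7.58) were close to each other. Iyd and Tdo2 were the lowest in all 3 neuron tables.

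Across mice of the same group, the 4 dentate markers moved together. With group means subtracted, Pearson's r of the 6 dentate pairs ran from 0.84 to 0.97 in the 24 aged libraries, from 0.83 to 0.97 in the 11 libraries of 10-month mice, and was 0.63 to 0.86 in the 20 PS19 libraries. Spearman's rho of these pairs was 0.82 to 0.94, 0.77 to 0.94 and 0.59 to 0.87. Without the 2 libraries farthest from the median in the first gene of each pair, r was 0.81 to 0.96, 0.79 to 0.96 and 0.59 to 0.83. The first gene is the one named earlier in the opening paragraph, so the libraries left out can differ between pairs. Prox1 and Dsp were the tightest pair in each table, at 0.97, 0.97 and 0.86. In aged replicates 4 to 12 alone, r of the dentate pairs was 0.80 to 0.95. These correlations, from 36 pairs in each table, are descriptions and carry no p. The points share library and scaling.

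Individual mice show what these values mean. In the aged mice, upACSS2 replicates 2 and 3 were the 2 highest libraries for Prox1 (7.28 and 7.18), Dsp (6.31 and 6.35), C1ql2 (7.18 and 6.88) and Tdo2 (3.61 and 3.74). Vector replicates 6 and 7 were the 2 lowest for Dsp (3.97 and 3.86) and C1ql2 (4.31 and 4.66). The other aged libraries lay between 5.45 and 6.61 for Prox1. Among the 10-month mice, upACSS2 replicates 2 and 3 led Prox1 (7.57 and 7.64), Dsp (7.14 and 7.06) and C1ql2 (7.87 and 7.49), while their Bok (5.79 and 5.99) lay in the lower part of its range. In bulk tissue, fewer cells of a type and less RNA per cell cannot be told apart.

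The CA3 markers also moved together: r of the 3 pairs was 0.56 to 0.76 in the aged mice, 0.85 to 0.95 in the 10-month mice and 0.72 to 0.91 in PS19 mice. Spearman's rank correlation of these pairs was 0.47 to 0.74, 0.75 to 0.90 and 0.66 to 0.91. In aged replicates 4 to 12 alone, r of the CA3 pairs was 0.51 to 0.81. In the 10-month mice 1 library weighed heavily: vector replicate 5 had the lowest Bok (4.95, the other 10 libraries 5.79 to 6.87), Iyd (0.51, others 1.95 to 3.32) and Grik4 (4.37, others 5.12 to 5.88). Without the 2 libraries farthest from the median in the first gene of each pair, the 3 pairs there had r of 0.53 to 0.86. That library lay mid-range for Prox1 (6.76) and had the highest Wfs1 of its table at 8.14.

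PS19 vector replicate 3 at 6 months was low in all 3 CA3 markers as well, with Bok at 4.83, Iyd at 0.22 and Grik4 at 4.74. It was also the lowest of the 20 PS19 libraries for Dsp (4.64), Tdo2 (0.80), Wfs1 (6.11) and Fibcd1 (5.91), and its astrocyte marker sum was 9845 CPM, above the 3602 to 7378 of the other PS19 libraries. Other sums were the highest of the PS19 libraries there too: microglia 778, oligodendrocyte 5965, oligodendrocyte precursor 115 and inhibitory neuron markers 993 CPM. Whether the cell makeup plays a part was not tested. PS19 upACSS2 replicate 2 at 6 months was low in CA3 markers only: Bok 5.21 and Iyd 1.45, with Prox1 at 7.14 and Fibcd1 at 8.0, the latter the highest of the table.

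The CA1 pair was different. Wfs1 and Fibcd1 had r of 0.87 (rho 0.86) in the 10-month mice and 0.80 (rho 0.74) in the PS19 mice, but -0.15 (rho -0.10) in the aged mice, and -0.35 in aged replicates 4 to 12 alone. Without the 2 libraries farthest from the median in Wfs1, r was 0.74, 0.80 and -0.08. The difference in r between the tables was not tested. In the aged mice upACSS2 replicate 1 had the highest Wfs1 of all (8.13) with a low Fibcd1 (6.27), and vector replicate 11 had the lowest Wfs1 (5.86) with a Fibcd1 of 7.87, among the highest. In the 10-month mice vector replicate 2 was the lowest for both genes (6.31 and 6.43).

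**Figure D2:**
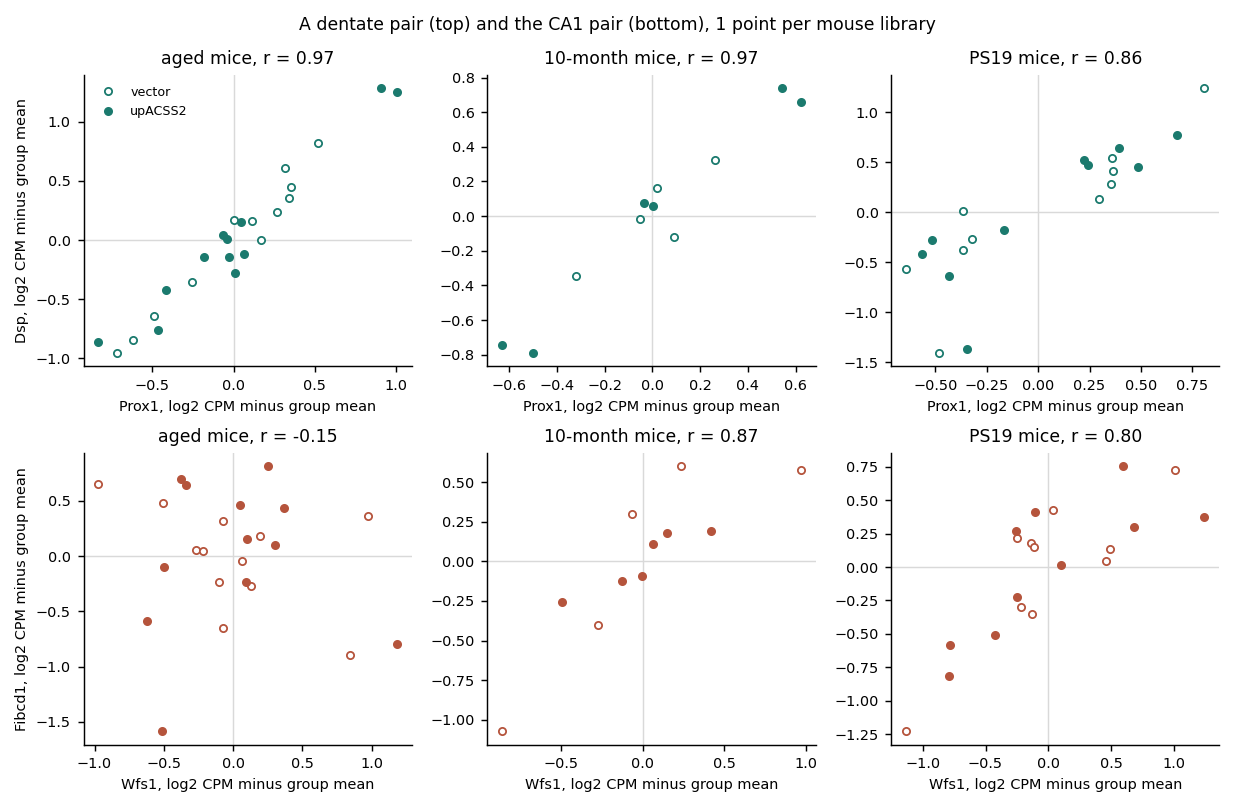
Deviation of log2 CPM from the group mean for Dsp against Prox1 (top) and Fibcd1 against Wfs1 (bottom), 1 point per library, vector open and upACSS2 filled, in the aged, 10-month and PS19 mice. The dentate pair follows a line in each table (r = 0.97, 0.97 and 0.86), and the CA1 pair does so in the 10-month and PS19 mice (0.87 and 0.80) but not in the aged mice (-0.15).

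Markers of different subfields were loosely related. The median r of the 26 pairs that cross subfields was 0.11 in the aged, -0.07 in the 10-month and 0.11 in the PS19 mice, and r exceeded 0.5 in 6, 0 and 3 of the 26. Among the aged mice, Iyd followed the dentate markers (r of 0.54 to 0.66 with the 4 of them) as closely as it did Bok and Grik4 (0.56 each). Fibcd1 followed Bok (0.60) and Grik4 (0.53) in place of Wfs1, while Wfs1 and Grik4 ran against each other (-0.55). These aged values include the difference in level between replicates 1 to 3 and 4 to 12. In replicates 4 to 12 alone the 26 pairs ran from -0.41 to 0.77, against -0.55 to 0.66 in all aged libraries. In the 10-month mice the strongest opposition was between Wfs1 and Bok (-0.67). In the PS19 mice Wfs1 and Fibcd1 had r of 0.57 and 0.51 with Dsp.

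**Figure D3:**
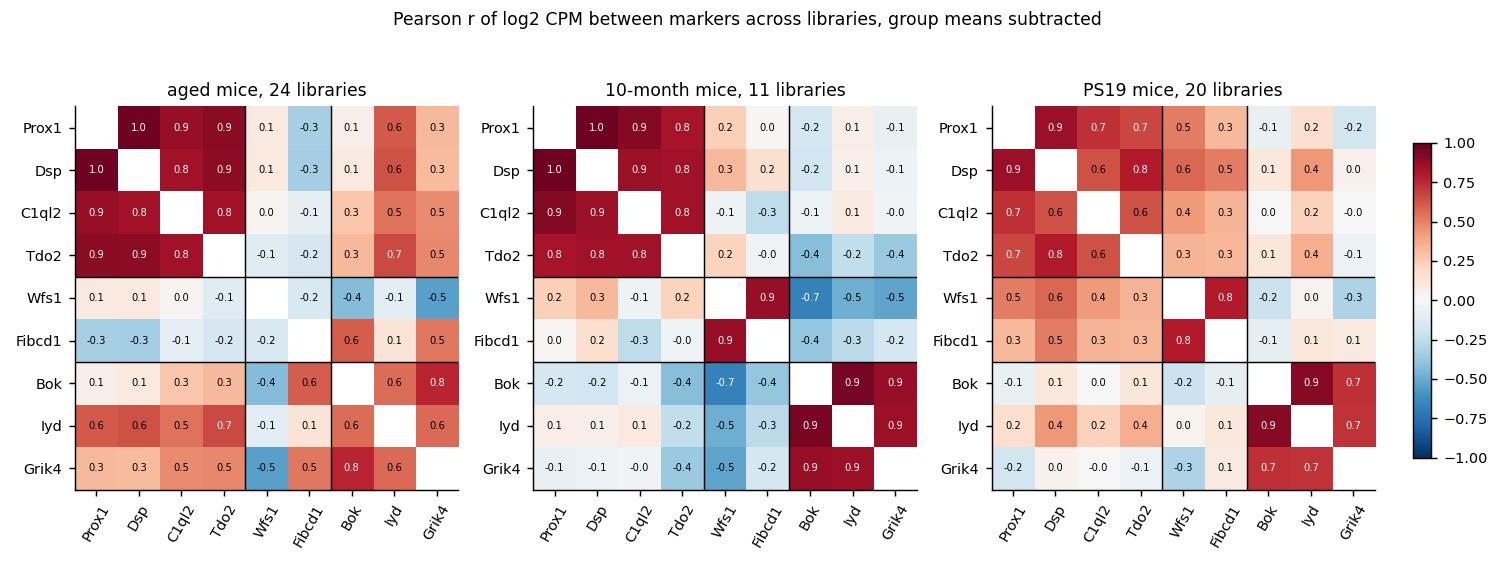
Pearson's r between the 9 markers across libraries of the aged (24), 10-month (11) and PS19 mice (20), group means subtracted, with lines between the dentate, CA1 and CA3 blocks. The dentate and CA3 blocks are positive in all 3 tables, and the CA1 pair is negative in the aged mice only.

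Which other genes followed the markers was read from the mean of each subfield's members. For the dentate gyrus the 5 closest of 12338 genes in the aged mice were Sema5a (r 0.94), Maml2, Il1r1, Mcm6 and Dock10, and of 12228 in the 10-month mice Lrrtm4 (0.98), Tiam1, Fam163b, Sema5a and Ipcef1. Of 12377 genes in the PS19 mice they were Rfx3 (0.98), Mcm6, Il1r1, Dock10 and Jph1. Sema5a, Il1r1, Mcm6 and Dock10 each came up in 2 of the 3 tables. For CA3 the closest gene was Ccbe1 (0.94) in the aged, Homer3 (0.96) in the 10-month and Rem2 (0.97) in the PS19 mice, and Cpne4 was among the 5 closest in the latter 2. For CA1 it was Tmem200a (0.83), B3gat1 (0.97) and Ror1 (0.95), with no gene among the 5 closest in more than 1 table.

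Lists of further subfield genes, chosen with earlier results of these data known, also moved with the members. They hold Dock10, Rfx3 and Cpne4, which are named above, so they are not separate support. The mean of 9 further dentate genes had r of 0.91, 0.98 and 0.95 with the dentate members in the aged, 10-month and PS19 mice, that of 4 CA3 genes 0.95, 0.90 and 0.94 with the CA3 members, and that of 7 CA1 genes 0.68, 0.93 and 0.89 with the CA1 members. Il16, placed on the dentate list, followed the CA3 members (0.91, 0.80 and 0.93) more closely than the dentate ones (0.54, 0.16 and 0.37). Calb1, the calbindin gene of granule cells, followed the dentate members in the 10-month (0.72) and PS19 mice (0.70) but not in the aged mice (-0.31). The list of 9 genes of the ventral hippocampus ran against the dentate members, at -0.28, -0.68 and -0.59.

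Markers of neighbouring tissue and other cells moved with some subfields. In the 10-month mice thalamus markers had r of -0.89 (-0.41 in the aged and -0.06 in the PS19 mice) with the CA1 members, astrocyte markers -0.76 (0.14 and -0.24) and vessel and meninges markers -0.68 (0.11 and -0.05). Microglia markers there had -0.75 with the dentate members (0.27 and 0.16). The 10-month vector replicate 2, the lowest in both CA1 genes, held 287 CPM of thalamus markers against 37.3 to 84.8 in the other 10 libraries. Inhibitory neuron markers had r of -0.78, -0.24 and -0.35 with the dentate members and -0.29, -0.37 and -0.69 with the CA3 members in the aged, 10-month and PS19 mice. Choroid plexus markers ran from 23 to 2530 CPM in the aged, 66 to 5558 in the 10-month and 83 to 6007 in the PS19 mice. Their r with the subfield means was at most 0.41 in size. The part of dissection or cell makeup in the members' levels was not tested.

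The label of tissue was compared with genes that mark the ventral hippocampus. Median Trhr was 9.25 and 8.52 CPM in the aged upACSS2 and vector groups, labelled whole, and 1.12 and 2.69 CPM in the 10-month groups, labelled dorsal. Dcn, which also marks vessels and meninges, had 45.2 and 43.1 CPM against 5.91 and 19.3. Grp (16.5 and 17.2 against 4.71 and 7.70) and Nr2f2 (30.3 and 24.5 against 7.53 and 11.9) were also higher in the aged groups. So were Gpr101 (13.3 and 12.6 against 7.62 and 6.93) and Etv1 (128 and 124 against 99.0 and 101). Not all ventral genes differed this way: Lypd1 had 98.9 and 95.5 CPM against 102 and 103, Gpc3 4.88 and 3.71 against 3.03 and 4.38, and Coch 6.07 and 5.20 against 1.93 and 5.58. In the PS19 mice at 1 month the upACSS2 group, labelled whole, had 1.36 CPM of Trhr and 5.41 of Dcn, and the vector group, labelled dorsal, 1.57 and 5.89. By the fitted fold change, a measure other than the medians, 4 of the 9 ventral genes were higher and 5 lower with upACSS2 there. None passed the test, and the median log2 fold change was -0.05 against -0.01 over all genes. For Trhr and Dcn the PS19 group labelled whole thus lay below the aged mice, which also differ in age and genotype, while Lypd1 had 107 CPM in it.

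The effect of the virus on the 9 members was then tested in the mice with edgeR's quasi-likelihood test, and no member passed in any of the 4 virus comparisons. In the aged mice Prox1 ran from 5.45 through a median of 6.25 to 7.28 with upACSS2 and from 5.37 through 6.23 to 6.61 with vector, and C1ql2 from 5.42 through 6.09 to 7.18 and from 4.31 through 6.11 to 6.39. The groups overlapped for all 9. Log2 fold changes ran from -0.29 (Iyd) to 0.32 (C1ql2), with standard errors of 0.12 to 0.26 and a lowest adjusted p of 0.922. Called genes were 0% of 15157 here (edgeR), with 846 genes at an unadjusted p below 0.05, none of them a member. DESeq2 called no member in any mouse comparison.

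In the 10-month mice log2 fold changes of upACSS2 against vector ran from -0.23 (Tdo2) to 0.50 (Dsp). Dsp was 5.61, 5.65, 6.46, 6.48, 7.06 and 7.14 with upACSS2 and 5.65, 5.87, 5.98, 6.16 and 6.32 with vector, so that 4 upACSS2 libraries lay above all vector libraries and 1 below them (0.50 ± 0.25 SE, adjusted p = 0.579, edgeR). Called genes were 0% of 13629, and 1204 genes but no member had an unadjusted p below 0.05.

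In the PS19 mice at 1 month the members ran from -0.39 (Iyd) to 0.60 (C1ql2), with called genes at 0% of 15850 (463 at an unadjusted p below 0.05). C1ql2 was 4.93, 5.11, 5.49, 6.02 and 6.14 with upACSS2 and 4.07, 4.62, 5.14, 5.39 and 5.45 with vector, with 3 upACSS2 libraries above all vector libraries (0.60 ± 0.31 SE, adjusted p = 0.964, edgeR). At 6 months all 9 members were on the higher side with upACSS2, from 0.02 (Wfs1) to 0.73 (Tdo2), again with 0% of genes called (2237 at an unadjusted p below 0.05) and a lowest adjusted p of 0.398. Tdo2 there was 1.99, 2.03, 2.83, 3.29 and 3.31 with upACSS2 and 0.80, 1.82, 1.85, 2.15 and 2.97 with vector. The vector replicate 3 described above is the lowest of these, and the 9 genes of 1 library are not independent, so the shared sign is a description. Choroid plexus markers, all 6 on the higher side with upACSS2 at 6 months, had a median sum of 2161 CPM against 113. Their part was not tested.

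**Figure D4:**
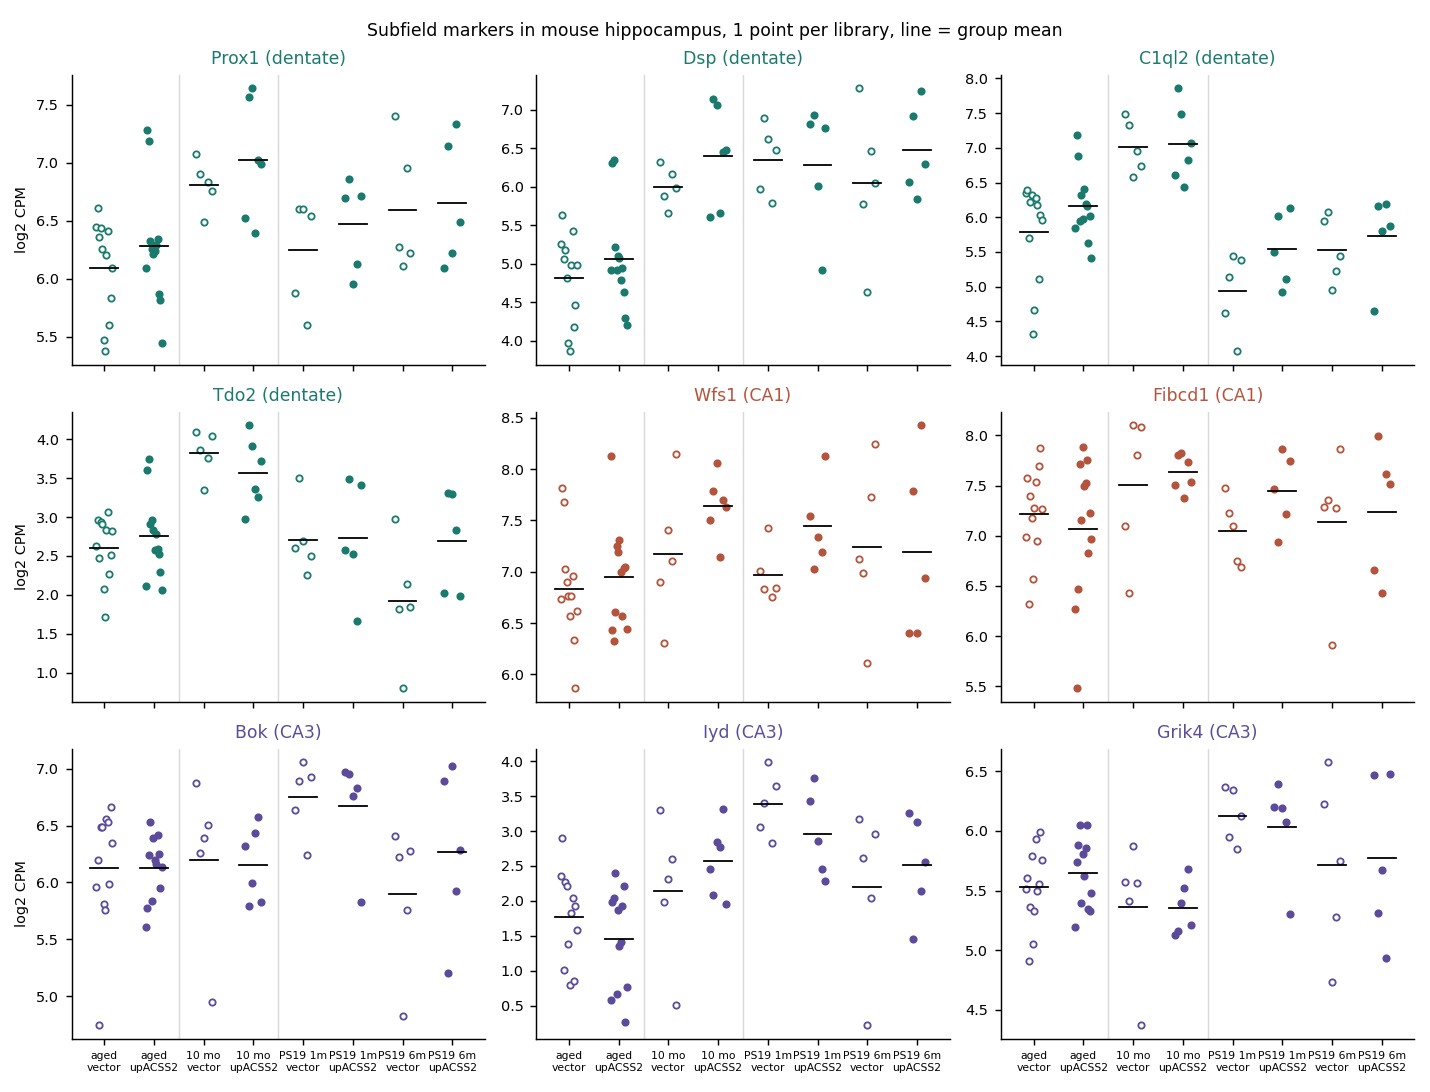
Log2 CPM of each marker in every mouse library, vector open and upACSS2 filled, with a line at the group mean. The groups of the 2 viruses overlap for all 9 markers, and single libraries such as 10-month vector replicate 5 stand low in Bok, Iyd and Grik4 together.

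Between 6 and 1 month in the PS19 mice, no member passed in either virus group, against 7.46% of genes with vector and 0.0442% with upACSS2 (edgeR). With vector, Bok was 4.83, 5.76, 6.22, 6.28 and 6.41 at 6 months and 6.24, 6.64, 6.89, 6.92 and 7.06 at 1 month. Its log2 fold change was -0.79 ± 0.31 (SE, adjusted p = 0.117), and 3 of 5 older libraries lay below all younger ones. Iyd went the same way (-0.98 ± 0.42 SE, adjusted p = 0.152), with 0.22, 2.04, 2.61, 2.96 and 3.17 against 2.83, 3.06, 3.41, 3.64 and 3.99. Without vector replicate 3 at 6 months the values were -0.61 for Bok and -0.72 for Iyd. Summed oligodendrocyte precursor markers were 86.2 to 115 CPM at 6 months and 69.3 to 83.7 at 1 month, and microglia markers had medians of 584 and 306 CPM. Their part was not tested. All 4 further CA3 genes were also on the lower side, none past the test, with a median of -0.47 against 0.01 over all genes. With upACSS2 the values were -0.33 for Bok and -0.41 for Iyd, and no member or other gene passed the test of the difference between the viruses (0% of 15850, with 1956 genes and no member at an unadjusted p below 0.05).

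In culture, some members passed the test between day 9 and day 21, which also differ in time after virus and tau. From day 9 to day 21, 4 of 9 members passed with vector and PBS, 2 with vector and tau, 5 with upACSS2 and PBS and 6 with upACSS2 and tau, against 57.7%, 52.6%, 54.3% and 53.6% of all genes (edgeR). The members' share was thus near that of all genes or below it. Wfs1 and C1ql2 passed in all 4, in opposite directions.

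Wfs1 fell in all 4 conditions. With vector and PBS it was 5.96, 5.97 and 6.16 on day 9 and 4.68, 4.70 and 4.77 on day 21, and with vector and tau 5.99, 6.17 and 6.18 against 4.91, 4.96 and 5.18. With upACSS2 and PBS it was 6.21, 6.28 and 6.44 against 4.31, 4.54 and 4.79, and with upACSS2 and tau 5.95, 6.08 and 6.17 against 4.11, 4.13 and 4.29. No day 21 library reached the lowest of day 9. The log2 fold changes were -1.32 ± 0.11, -1.10 ± 0.11, -1.76 ± 0.11 and -1.89 ± 0.11 (SE, adjusted p 3.02e-09, 4.6e-08, 6.49e-11 and 2.76e-11, edgeR). In CPM this was 65.5 ± 5.10 to 26.2 ± 0.82 with vector and PBS (SD, n = 3). The call held when each library was left out in turn and in all other settings run.

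C1ql2 rose in all 4 conditions. With vector and PBS it was 4.63, 4.81 and 4.87 on day 9 and 5.02, 5.41 and 5.85 on day 21 (0.70 ± 0.24 SE, adjusted p = 0.019, edgeR), and with vector and tau 4.77, 4.88 and 4.96 against 4.83, 5.84 and 5.89 (0.73 ± 0.25, 0.0177). With upACSS2 and PBS it was 4.83, 4.89 and 4.91 against 5.78, 5.90 and 5.99 (1.02 ± 0.24, 0.00155), and with upACSS2 and tau 4.84, 4.88 and 5.06 against 5.06, 6.06 and 6.08 (0.87 ± 0.24, 0.00504). The days overlapped with vector and tau, where day 21 replicate 2 was low. With vector and PBS the call was lost without day 21 replicate 3 (0.44, adjusted p = 0.146) or day 9 replicate 1 (0.63, 0.0709). With vector and tau it was lost without day 9 replicate 3 (0.68, 0.058), day 21 replicate 1 (0.54, 0.105) or day 21 replicate 3 (0.58, 0.0841).

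The other dentate markers gave less. Dsp rose with vector and PBS (0.77 ± 0.29 SE, adjusted p = 0.0304) and with upACSS2 and tau (0.71 ± 0.29, 0.0485), and Tdo2 rose with upACSS2 and tau (0.75 ± 0.31, 0.0467, edgeR). With vector and PBS the Dsp call was lost without any 1 day 9 library (0.70, 0.80 and 0.81, adjusted p 0.0959, 0.0583 and 0.0544) or day 21 replicate 1 (0.63, 0.0948). With upACSS2 and tau the calls of Dsp and Tdo2 were lost without any 1 library but day 21 replicate 3, with the lowest values at 0.45 (0.242) for Dsp without day 21 replicate 1 and 0.24 (0.521) for Tdo2 without day 21 replicate 2. Prox1 had log2 fold changes of 0.01, -0.33, -0.05 and 0.05 in the order of conditions above, none past the test.

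Bok passed with upACSS2 and was on the higher side on day 21 with vector too. With upACSS2 and tau it was 3.84, 3.94 and 4.09 on day 9 and 5.41, 5.96 and 6.14 on day 21 (1.92 ± 0.32 SE, adjusted p = 5.09e-05, edgeR), and with upACSS2 and PBS 3.65, 3.68 and 3.70 against 4.14, 4.38 and 5.48 (1.12 ± 0.33, 0.00705). No day 21 library lay as low as day 9 in either condition. The call in PBS was lost without day 21 replicate 3 (0.59, 0.105). With vector the values were 0.60 ± 0.32 (0.121) in PBS and 0.75 ± 0.33 (0.0589) in tau. The latter was called by limma-voom (0.92, adjusted p = 0.000578) and by edgeR with only the groups compared (0.74, 0.0179). The difference of the culture-day effect between viruses was not tested.

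The remaining CA3 markers went down where they passed. Grik4 fell with vector and PBS, from 6.26, 6.35 and 6.35 to 5.40, 5.61 and 6.08 (-0.60 ± 0.19 SE, adjusted p = 0.0103), and with upACSS2 and PBS, from 6.44, 6.44 and 6.54 to 5.50, 5.87 and 6.12 (-0.63 ± 0.19, 0.00829, edgeR). The days did not overlap in either. With tau the values were -0.20 in both virus groups, with overlapping days and adjusted p of 0.391 and 0.377. The calls in PBS were lost without day 21 replicate 3 of vector (-0.47, 0.0541) and day 21 replicate 1 of upACSS2 (-0.48, 0.0567). Iyd fell with upACSS2 and PBS (-1.04 ± 0.39, 0.0295) and lost the call without day 9 replicate 3 (-0.89, 0.105), day 21 replicate 1 (-0.96, 0.0871) or day 21 replicate 3 (-0.97, 0.0753). Fibcd1 rose with upACSS2 and tau (0.54 ± 0.18, 0.018), from 1.72, 2.01 and 2.28 to 2.46, 2.57 and 2.60, and lost the call without day 9 replicate 3 (0.40, 0.108).

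**Figure D5:**
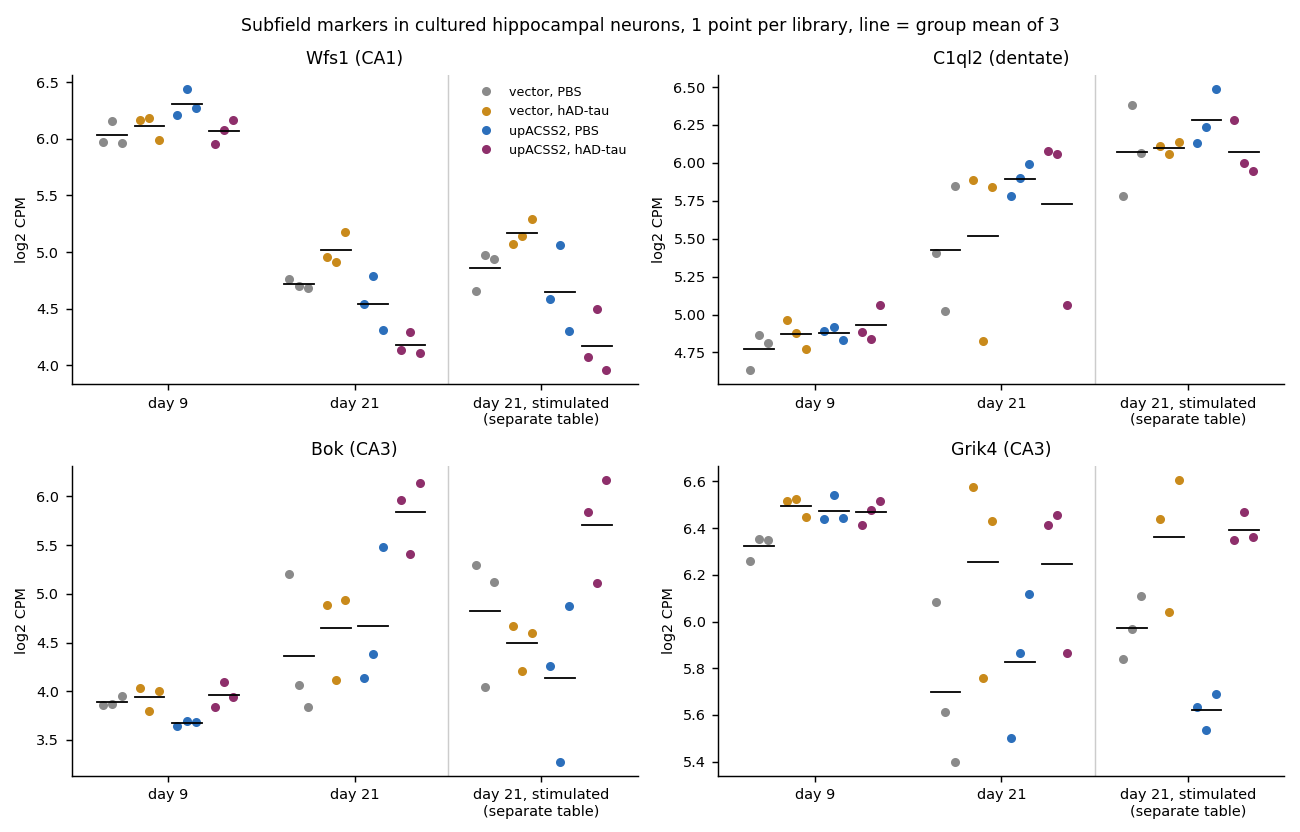
Log2 CPM of Wfs1, C1ql2, Bok and Grik4 in cultured neurons by day and condition, 1 point per library and a line at the mean of 3. The stimulated libraries come from a separate table. Wfs1 is lower on day 21 in every condition and lowest with upACSS2 and hAD-tau, where Bok is highest.

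Further genes of the subfields and of other cells changed between the days as well. These counts stand against the 52.6% to 57.7% of all genes called in either direction. Of 9 further dentate genes, 5, 4, 5 and 5 rose and 1, 1, 0 and 0 fell in the order of conditions above, among them Dock10, which rose by 1.99 to 2.39, and Calb1, by 1.44 to 1.94. Of 4 further CA3 genes 0, 1, 0 and 0 rose and 3, 2, 3 and 2 fell, and Nectin3 fell in all 4 conditions, with -1.28 at the least and -1.88 at the most. All 4 genes of immature granule neurons that passed the filter fell in each condition, Dcx with log2 fold changes of -2.86 to -3.25. Inhibitory neuron markers rose, 6 of 6 in each condition.

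Glial markers rose beside them: oligodendrocyte precursor markers 3 of 3, oligodendrocyte markers 4 of 5 with 1 lower, and astrocyte markers 5, 2, 2 and 5 of 6. Group medians of the summed astrocyte markers were 2256 to 2497 CPM on day 9 and 4867 to 7157 CPM on day 21. Those of oligodendrocyte precursor markers were 24.4 to 48.5 and 461 to 806 CPM, and those of the neuron markers 5553 to 6091 and 3201 to 4392 CPM. Whether the makeup of the cultures accounts for any member's change was not tested.

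Within day 9, 2 of 9 members passed for upACSS2 against vector in PBS, against 10.2% of genes (edgeR). Wfs1 was 6.21, 6.28 and 6.44 with upACSS2 and 5.96, 5.97 and 6.16 with vector, without overlap (0.27 ± 0.07 SE, adjusted p = 0.0158). The call was lost without upACSS2 replicate 2 (0.20, 0.0997), vector replicate 1 (0.23, 0.0951) or vector replicate 3 (0.24, 0.051). Grik4 was 0.15 ± 0.05 higher (adjusted p = 0.0479) and lost the call without any 1 of the 6 libraries, with values of 0.11 to 0.17 and adjusted p of 0.0551 to 0.246. In tau no member passed for upACSS2 against vector, against 0.692% of genes, with 3 members and 1761 genes at an unadjusted p below 0.05 and no member called by DESeq2. The difference of the virus effect on Wfs1 between tau and PBS was -0.32 ± 0.10 (adjusted p = 0.0953), with no member past the test against 0.663% of genes. DESeq2 called Wfs1 there (adjusted p = 0.05).

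hAD-tau on day 9 gave 1 call with vector, Grik4, against 4.28% of genes: 6.45, 6.52 and 6.52 with tau and 6.26, 6.35 and 6.35 with PBS, without overlap (0.17 ± 0.05 SE, adjusted p = 0.0412, edgeR). It was lost without tau replicate 1 (0.16, 0.144), tau replicate 2 (0.16, 0.17) or PBS replicate 1 (0.14, 0.234). With upACSS2 no member passed, against 0.349% of genes, with 3 members and 1269 genes at an unadjusted p below 0.05 and no member called by DESeq2.

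On day 21 no member passed in any of the 5 comparisons within the unstimulated table, where called genes were 0.0137% for upACSS2 against vector in PBS, 0.0273% in tau and 0% for both tau comparisons and the interaction (edgeR). The genes at an unadjusted p below 0.05 numbered 2431, 1564, 1361, 931 and 1215, and the members among them 0, 2, 2, 2 and 1. The closest was Wfs1 in tau, at 4.11, 4.13 and 4.29 with upACSS2 and 4.91, 4.96 and 5.18 with vector, without overlap. Its log2 fold change was -0.83 ± 0.13 (SE), or 18 ± 1.28 against 32.4 ± 3.31 CPM (SD, n = 3), with an adjusted p of 0.079. DESeq2 called Wfs1 and no other member in these 5 comparisons (-0.83, adjusted p 9.15e-06), and so did edgeR with all 24 unstimulated libraries in 1 fit (-0.84, 0.000468). Bok in tau was 5.41, 5.96 and 6.14 with upACSS2 and 4.12, 4.88 and 4.94 with vector, also without overlap (1.19 ± 0.41 SE, adjusted p = 0.359), and passed with all 24 libraries in 1 fit (1.18, 0.0422). Day 21 libraries spread more than day 9 libraries, with a biological coefficient of variation of 0.189 against 0.042.

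The stimulated libraries of day 21 gave the same comparison in other libraries. There Wfs1 was 3.96, 4.07 and 4.49 with upACSS2 and tau and 5.07, 5.14 and 5.29 with vector and tau, without overlap. The log2 difference was -0.98 ± 0.19 (SE) at an adjusted p of 0.0368 (edgeR), or 18.2 ± 3.74 against 36.0 ± 2.82 CPM (SD, n = 3). It was the 1 member of 9 that passed, against 0.937% of genes. The call was lost without 5 of the 6 libraries in turn: without upACSS2 replicate 1 (-0.92, 0.166), 2 (-1.16, 0.0514) or 3 (-0.88, 0.133), and without vector replicate 1 (-1.03, 0.0871) or 3 (-0.92, 0.123). Bok was 5.11, 5.84 and 6.17 against 4.21, 4.60 and 4.67 (1.27 ± 0.40 SE, adjusted p = 0.111). Same-numbered replicates deviated together in this comparison, and with the replicate number as a block Bok passed (1.20, adjusted p = 0.0166), which makes 2 of 9 members, with 399 genes called under the block against 140 without it.

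Summed astrocyte markers in these groups were 6652 to 7395 CPM with upACSS2 and tau and 2740 to 4223 CPM with vector and tau, and inhibitory neuron markers 1300 to 1730 and 1025 to 1117 CPM. In the unstimulated day 21 libraries astrocyte sums were 5435 to 10236 and 3208 to 5142 CPM. The astrocyte markers thus lay apart between the groups in which Wfs1 and Bok did. Their part in these results was not tested.

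In stimulated neurons with PBS no member passed for upACSS2 against vector, against 0.208% of genes, with 2 members and 2375 genes at an unadjusted p below 0.05. DESeq2 called Dsp (-0.60, adjusted p = 0.0296), which was 4.72, 4.94 and 4.99 with upACSS2 and 5.16, 5.50 and 5.73 with vector. Tau with vector changed 1 member, Prox1, against 3.02% of genes: 6.35, 6.95 and 7.21 with tau and 7.52, 7.65 and 7.66 with PBS, without overlap (-0.73 ± 0.17 SE, adjusted p = 0.046, edgeR). The call was lost without tau replicate 1 (-0.77, 0.0816) or 3 (-0.53, 0.124) and without PBS replicate 1 (-0.78, 0.168) or 3 (-0.71, 0.151). In the unstimulated day 21 libraries Prox1 was 5.96, 6.22 and 6.84 against 6.62, 6.87 and 7.00, with overlap (-0.46 ± 0.21, adjusted p = 0.53).

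Tau with upACSS2 changed Grik4 in the stimulated set, 1 member against 0.208% of genes. Grik4 was 6.35, 6.36 and 6.47 with tau and 5.54, 5.63 and 5.69 with PBS, without overlap (0.77 ± 0.12 SE, adjusted p = 0.047, edgeR). The fold change stayed at 0.73 to 0.82 without each library in turn, but the adjusted p was then 0.0599 to 0.208. Bok was 5.11, 5.84 and 6.17 against 3.28, 4.26 and 4.88, also without overlap (1.50 ± 0.40 SE, adjusted p = 0.127), and DESeq2 called it (0.0482). No member passed the interaction of virus and tau (0% of genes, 2135 genes and 2 members at an unadjusted p below 0.05, none of the members by DESeq2), where Bok had the largest value at 1.91 ± 0.56 (adjusted p = 0.235). These comparisons share groups of 3 libraries with each other.

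In the tau culture without virus no member passed for hAD-tau against PBS, and no gene did (0% of 16341, edgeR), although 7 of 9 members and 2272 genes had an unadjusted p below 0.05. Bok was 3.94, 4.25, 4.30 and 4.86 with tau and 2.89, 3.46 and 3.52 with PBS, without overlap (1.07 ± 0.27 SE, adjusted p = 0.306), and DESeq2 called Bok (adjusted p = 0.0232), 1 of 308 genes at its threshold. Wfs1 was 3.93, 4.61, 4.66 and 4.87 against 5.00, 5.12 and 5.45, also without overlap (-0.65 ± 0.23 SE, adjusted p = 0.323). All 4 dentate and both CA1 markers were on the lower side with tau. Summed markers of other cells lay apart between the groups too: 1828 to 2332 CPM with tau against 2389 to 3698 with PBS for neurons, 516 to 1055 against 1128 to 2361 for inhibitory neurons, and 1213 to 2158 against 30.8 to 872 for oligodendrocyte precursors. Their part was not tested.

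The library that stood apart, PBS replicate 3, was the highest of its group for Dsp (4.25, others 3.09 and 3.23), C1ql2 (5.41, others 3.72 and 3.96), Fibcd1 (4.70, others 2.91 and 3.33) and Iyd (1.15, others -1.96 and -0.72). It was the lowest for Bok (2.89). Without it the log2 fold changes were -0.45 for Dsp, -0.45 for Fibcd1, -0.27 for Iyd and 0.88 for Bok. The astrocyte markers were lower and the inhibitory neuron markers higher in this library, as given above, and their part was not tested.

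Co-variation of the markers in culture varied from pair to pair. With group means subtracted, Prox1 and Dsp had r of 0.77 in the 24 unstimulated libraries, 0.50 in the 12 stimulated and 0.81 in the 7 of the tau culture, and Dsp and C1ql2 0.80, 0.57 and 0.90. The 6 dentate pairs ran from 0.36 to 0.80, from 0.19 to 0.86 and from 0.62 to 0.90. Among them Prox1 and Tdo2 had 0.36, 0.39 and 0.63, and Prox1 and C1ql2 0.68, 0.19 and 0.72. The CA1 pair had 0.00, -0.56 and -0.02, and Bok and Iyd, positive in all 3 mouse tables, had -0.23, -0.21 and -0.62, while Bok and Grik4 had 0.64, 0.21 and 0.35. The difference between tissue and culture was not tested. Within single days Prox1 and Dsp had 0.56 on day 9 and 0.81 on day 21, and Dsp and Tdo2 -0.32 and 0.54. Iyd rested on few counts in culture, 7 to 45 in the unstimulated libraries.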

How the data were processed

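RNA-seq of 98 mouse libraries in 22 groups was analysed from 6 tables of gene counts. The authors deposited raw read counts per gene, and the submitters' processing notes name STAR, featureCounts, HTSeq, DESeq2 and the build mm10. Which tool made which table and the strand setting are not given in the sources used here. Rows without a gene name in the tau culture (6.13 to 8.74% of counts) were left out.

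Counts were tested with edgeR 4.0.16 (R 4.3.3): TMM scaling, filterByExpr, a quasi-likelihood test and Benjamini-Hochberg adjustment over all genes tested, called at 0.05. Within-day comparisons of unstimulated neurons used the 12 libraries of that day, culture day all 24. Log2 CPM used a prior count of 2. Alternatives were DESeq2 1.42.0, limma-voom (limma 3.58.1), other scalings, filters and fits, and each library left out in turn. The tests were checked on simulated data. Of genes changed 2-fold, 27.8% were recovered in the tau culture and 66.7% to 94% in the other comparisons simulated. The changed genes were drawn at random from all genes tested, so these shares need not hold for the members. Standard errors of the members reached 0.42 for the virus in PS19 mice at 1 month. False calls were 4.02% to 7.47% of all calls, with 7.14% in the tau culture. Correlations, levels across tables and levels between genes were described without a test. All 9 members are named, and the most-like genes are the 5 per subfield and table with the highest r and a mean log2 CPM of at least 1. The members and gene lists were chosen with earlier results of these data known.

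Replicate numbers recur in the groups. Same-numbered libraries deviated together (every pair's r over 0.1) in 3 of 23 comparisons. These pairs had r of 0.22 to 0.39 in the tau culture. In the stimulated set they had 0.11 to 0.36 for the virus effect under tau, and 0.12 to 0.33 for the tau effect under vector.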

Additional observations from a re-analysis of the deposited data

Results flagged for a closer look

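Dixon's test was run on 63 groups of values of 4 to 10 libraries, of which about 3.15 would pass by chance, and 3 did. C1ql2, the dentate synapse protein, was 4.65 log2 CPM (663 counts) in PS19 upACSS2 replicate 1 at 6 months, with the other 4 libraries at 5.80 to 6.19. That library also held the highest choroid plexus marker sum of its table, 6007 CPM. Bok and Grik4, both CA3 markers, were low in the same library, PS19 upACSS2 replicate 5 at 1 month. Bok was 5.82 (727 counts) against 6.76 to 6.97 in the other 4, and Grik4 was 5.30 (506 counts) against 6.08 to 6.39. Wfs1, a CA1 marker, was the highest of its group in this library at 8.12.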

How the results depend on the processing

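Among members with an unadjusted p below 0.05 in the reported fit, no fold change reversed under any setting run. The other fold changes, among them all those of the virus in mice, were not checked for a change of sign. Prior counts of 0.5 and 5 and no TMM scaling were tried for correlations within subfields and for levels. All 90 refits of correlations moved by less than 1 standard error on Fisher's z scale. All 27 refits of levels moved by less than the spread within groups. Of the refits of the members checked for sign, 707 kept their side of the threshold, 68 lost and 24 gained a call. The number of members called of 9 moved by more than 1.5 times in the cases that follow. The number of all genes called also moved, over the ranges in the next paragraph, while for culture day it stayed within 1.5 times. These counts of members are therefore not results about the members alone. With DESeq2 it was 1 in place of 0 in the tau culture, 1 in place of 2 for upACSS2 in PBS on day 9, 1 in place of 0 for the day 9 interaction, for upACSS2 in tau on day 21 and for stimulated upACSS2 in PBS, 3 in place of 1 for stimulated tau with vector and 2 in place of 1 for stimulated tau with upACSS2. With all 24 unstimulated libraries in 1 fit it was 0 for upACSS2 in PBS and for tau with vector on day 9 and 2 for upACSS2 in tau on day 21. With only the groups compared it was 1 for upACSS2 in PBS, 0 for tau with vector and 1 for tau with upACSS2 on day 9, and 0 for stimulated upACSS2 in tau and tau with vector. Without the filter on low counts it was 1 for upACSS2 in tau, 2 for tau with upACSS2 and 1 for the interaction on day 9. With limma-voom it was 4 in place of 2 for culture day with vector and tau. The cause was not tested. With the replicate block it was 1 for upACSS2 in PBS on day 9, and in the stimulated set 2 for upACSS2 in tau, 2 for tau with upACSS2 (Bok 1.55, adjusted p = 0.00536, edgeR) and 1 for the interaction (Bok 1.87, 0.0177). All genes called under the block numbered 1344, 399, 487 and 166 in these comparisons, against 1437, 140, 31 and 0 without it. The pairing held only for the second of these, and the block moved the number of members called by more than 1.5 times in no other comparison. The number of all genes called moved that far in others as well. Among them were stimulated upACSS2 in PBS (280 against 31) and stimulated tau with vector (1069 against 451). Smaller moves for culture day were from 4 to 5 (replicate block, Iyd gained) and 3 (limma-voom) with vector and PBS, from 2 to 3 (only the groups compared, Bok gained) with vector and tau, and from 5 to 6 (only the groups compared) with upACSS2 and PBS. With upACSS2 and tau they were from 6 to 5 (no filter), 4 (replicate block, Dsp and Tdo2 lost; only the groups compared) and 7 (limma-voom).

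With each library left out in turn, fewer samples being part of such a setting, the number called ran from 2 to 5 for culture day with vector and PBS, 1 to 4 with vector and tau, 3 to 5 with upACSS2 and PBS and 3 to 6 with upACSS2 and tau. It ran from 0 to 1 on day 9 for upACSS2 in PBS, tau with vector and the interaction. In the stimulated set it ran from 0 to 1 for upACSS2 in tau and 0 to 2 for tau with vector, and was 0 for tau with upACSS2. The number of all genes called varied more: on day 9 from 2 to 1898 (1437 reported), 1 to 368 (97), 1 to 1409 (600), 0 to 201 (49) and 0 to 918 (93), in the order upACSS2 in PBS and in tau, tau with vector and with upACSS2, and interaction. On day 21 it was 1 to 1576 (2), 1 to 528 (4) and up to 29, 11 and 3 (0 each). In the stimulated set it was 1 to 420 (31), 1 to 962 (140), 0 to 1521 (451), 0 to 487 (31) and up to 166 (0). It reached 308 in the tau culture, 14 in the aged, 3 in the 10-month and, for the virus in PS19 mice, 2 at 1 month and 129 at 6 months (0 each). Between 6 and 1 month it was 374 to 1871 (1182) with vector and 0 to 174 (7) with upACSS2, and up to 3 (0) for the interaction. In the aged mice, with 12 libraries a group, none was left out singly. A term for replicates 1 to 3 and replicates 4 to 12 alone were run, and no member passed. Iyd, with as few as 1 count in the tau culture and 6 in the 10-month mice, and Tdo2, with 3, are the members whose depth limits precision most.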
